A study of Mus musculus with 6 samples.

Results

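Oligodendrocyte precursor cells (OPCs) were the cells that carry the OPC label in the deposited cell annotation of 4 hypothalami, 1261 of the 20151 cells of the labelled mice. Mice 3, 4, 30 and 34 contributed 386, 242, 267 and 366 OPCs. Every list of 4 values below follows that order of mice. OPCs are the proliferative glial progenitors of the adult brain, and they give rise to oligodendrocytes by way of committed oligodendrocyte precursors (COPs). Platelet-derived growth factor acting on PDGFRα keeps them dividing, fibroblast growth factors act beside it, and both signal through the MAPK/ERK cascade. OPCs also carry glutamate and GABA receptors and receive synapses from neurons.

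All cells came from male ob/ob mice, which lack functional leptin and are obese and diabetic, aged 11 weeks. Every animal received 3 µg of FGF1 R50E, an FGF1 protein carrying the R50E substitution, as an intracerebroventricular (icv) injection and was euthanised on day 5. They were housed singly on chow. The dissociated hypothalamus of each mouse formed 1 single-cell library of 3′ transcript ends counted by unique molecular identifiers (UMIs), and 4 of the 6 labelled mice have cells. There was 1 treatment group, so no effect of R50E could be estimated, and the 12 other libraries of the table were not used here.

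The OPC sums held 456745, 243918, 235526 and 435840 UMIs, and the median OPC had 1154, 783.5, 765 and 1128 UMIs, so mice 4 and 30 were shallower than mice 3 and 34. No cell had under 487 UMIs, under 396 genes or over 19.98% mitochondrial UMIs. Among all cells, 194 barcodes occurred in 2 or more mice. Of the OPCs, 27 shared their barcode with a cell of another mouse, and 2 barcodes occurred in OPCs of 2 mice.

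Before any result, the label was set against its defining markers. Pdgfra, the receptor for platelet-derived growth factor, stood at 1167, 1267, 1401 and 1202 CPM (counts of UMIs per 1000000 in the summed OPCs of the mouse), a mean of 1259 ± 103 CPM (SD, n = 4). Its highest mean in another type, among the 7 others with 20 or more cells per mouse, was 45 CPM in microglia. Single microglial values of Pdgfra were 7.49, 112, 60.8 and 0 CPM. Cspg4, the NG2 proteoglycan, was at 423, 353, 331 and 376 CPM in OPCs and at 80.9 CPM on average in endothelial cells, the next type. Olig1, a basic helix-loop-helix factor of the whole oligodendrocyte lineage, was at 1429.7, 1624, 1516 and 1372 CPM in OPCs, against 539.6 ± 68.3 CPM in COPs and 606 ± 23.7 CPM in oligodendrocytes. For each of the 3 markers, the lowest OPC value lay above every mouse's value in the 7 other types. The label and its markers thus go together for the cells as a whole. Vascular leptomeningeal cells, which also use Pdgfra, were too few to enter this ranking, and their 6 markers summed to 6.57, 16.4, 29.7 and 6.88 CPM in OPCs, against 4469 to 14306 CPM in those cells and a mean of 14.1 CPM in oligodendrocytes. Of the 6, Lum and Col3a1 had 0 UMIs in OPCs and the 4 others had some. The 3 OPC markers summed to 715, 453, 238 and 79.8 CPM in vascular leptomeningeal cells.

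**Figure D1:**
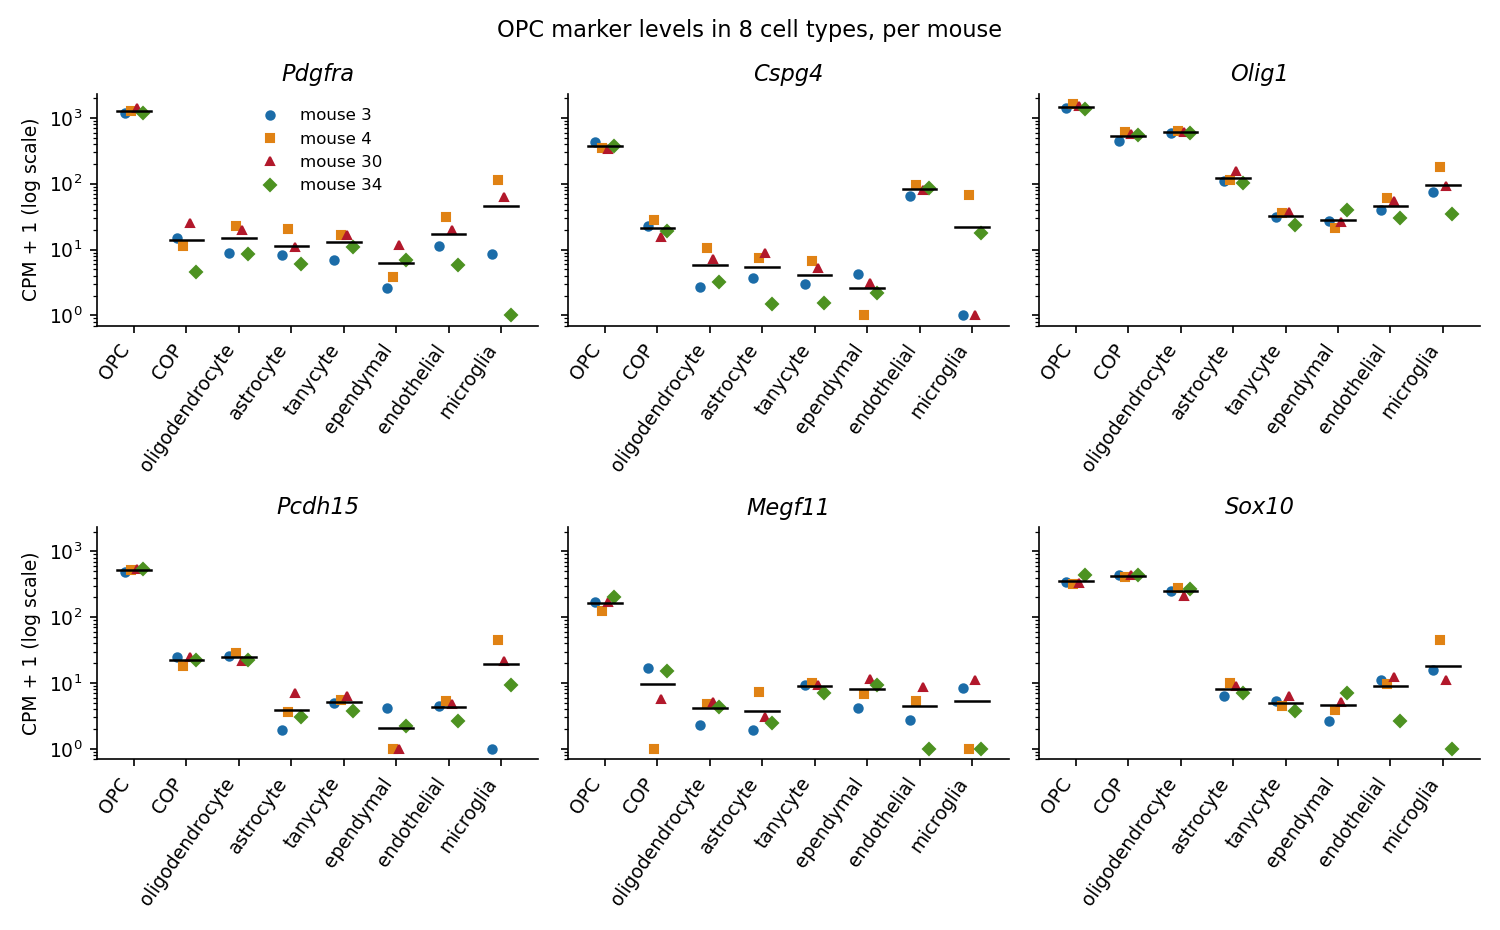
Levels of 6 genes in OPCs and 7 other cell types, as CPM + 1 on a log axis; each point is 1 mouse and each black line the mean of 4 mice. Pdgfra, Cspg4, Olig1, Pcdh15 and Megf11 are highest in OPCs in every mouse, whereas Sox10 is at 359 CPM in OPCs and 428 CPM in COPs.

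The OPC label spans 4 deposited clusters, and the 2 small ones go against it in part. Cluster 8 held 814 OPCs (64.6%), cluster 13 held 369 (29.3%), cluster 38 held 66 (5.23%) and cluster 45 held 12 (0.952%). Of the cells in cluster 38, 77.3% had a Pdgfra UMI and 65.2% a UMI of Gja1, the astrocyte connexin 43. Gja1 was found in 11.8% of OPCs in cluster 8 and 14.9% in cluster 13, in 77.9% of astrocytes and in 14.4% of oligodendrocytes, a type that should lack it. The median depth was 1267 UMIs in cluster 38, 902.5 in cluster 8, 1262 in cluster 13, 851 in astrocytes and 1136 in oligodendrocytes. Genes leading cluster 38 over the other OPCs were astrocyte genes, among them Gjb6 at 11.5-fold, Fgfr3 at 6.61-fold and Gja1 at 6.34-fold. Gja1 lay between 723 and 1019 CPM in the cluster 38 cells of each mouse, whereas Gfap rested on mouse 3, at 1108 CPM, with 81.8 CPM in mouse 30 and no UMI in mice 4 and 34. The 9 astrocyte markers summed to between 7517 and 8588 CPM per mouse in cluster 38, against 2726 to 3468 CPM in clusters 8 and 13. In cluster 45 the 7 tanycyte markers summed to 2372 CPM, against 65.7 and 36.8 CPM in clusters 8 and 13, and all 12 cells had a Pdgfra UMI. The median doublet score of the deposited annotation was 0.0308, 0.0149, 0.116 and 0.193 in clusters 8, 13, 38 and 45. Scores above the 90th percentile of their own mouse were held by 6.02% and 0.271% of the OPCs of clusters 8 and 13, and by 43.9% and 75% of those of clusters 38 and 45. What these 78 cells are was not tested. They were kept as labelled, and the counts of called genes, in all and by list, the fold changes of the named genes and the shares of OPCs with a cell cycle or COP marker UMI were also computed with the 1183 other OPCs.

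**Figure D2:**
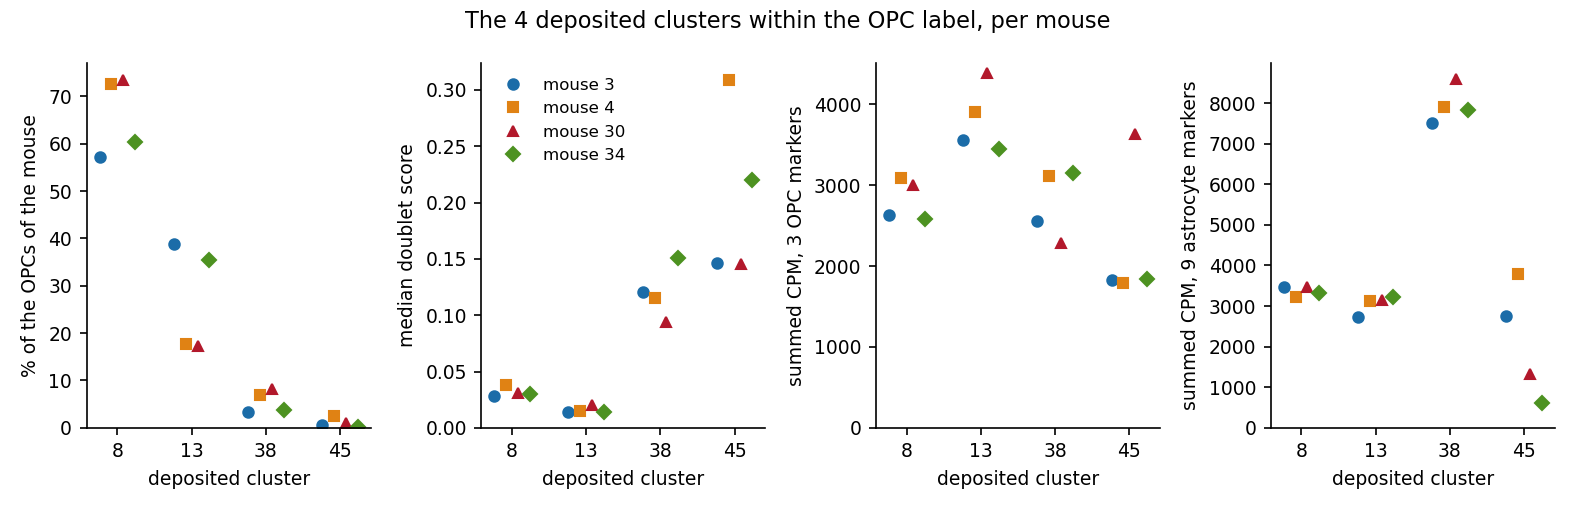
The 4 deposited clusters within the OPC label, 1 point per mouse: share of the mouse's OPCs, median doublet score, and summed CPM of the 3 OPC markers and the 9 astrocyte markers. Cluster 38 carries an astrocyte marker sum of 7517 to 8588 CPM beside an OPC marker sum of 2290.2 to 3147 CPM, where cluster 8 has 2583 to 3083 CPM.

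Clusters 8 and 13 are compared as a description, since clusters are probably made from the same counts. The 10 genes leading cluster 13 over all other OPCs, pooled over mice, were Tshz3, Prkg2, Smc2, Lig1, Dctpp1, Clptm1l, Lrfn5, Nosip, Hmgb2 and Mcm7, from 2.84-fold for Tshz3 to 2.24-fold for Mcm7. Pdgfra was higher in cluster 13 than in cluster 8 in each mouse, at 1524, 1494, 2181 and 1468 CPM against 923, 1242, 1201 and 1010 CPM. The share of OPCs in cluster 13 was 38.9%, 17.8%, 17.2% and 35.5%, lower in the 2 shallower libraries, and the part of depth in it was not tested.

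Markers of other cell types were also measured in the OPC sums. The 12 oligodendrocyte markers summed to 3855 ± 967 CPM in OPCs, about as much as in astrocytes (3840 CPM) and endothelial cells (3523 CPM), and to 59716 CPM in oligodendrocytes. The 9 astrocyte markers summed to 3571 ± 238 CPM in OPCs, and to 3247 ± 108 CPM without clusters 38 and 45, against 14644 CPM in astrocytes, 2768 CPM in microglia and 2493 CPM in endothelial cells. The 4 erythrocyte markers were at 94.1, 119, 675 and 135 CPM, so mouse 30 stood apart. The 7 tanycyte markers summed to 112 ± 89.4 CPM, and to 59.1 ± 20.8 CPM without clusters 38 and 45. The 9 microglial markers summed to 243 ± 47.6 CPM in OPCs, 143 CPM in COPs, 218 CPM in oligodendrocytes and 314 CPM in astrocytes. The 9 neuronal markers summed to 484, 668, 425 and 558 CPM in OPCs, a mean of 534 ± 105 CPM, above the means of the 7 other types, which ran from 181 CPM in COPs to 357 CPM in microglia and were 311 CPM in oligodendrocytes and 318 CPM in astrocytes. Their part in the results below was not tested.

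Plpp4, Pcdh15 and Pdgfra were among the 5 genes most particular to OPCs, and their proximal promoters are shown because the E-box, the CANNTG motif bound by basic helix-loop-helix factors such as OLIG1 and OLIG2, can be read in them. The 250 bases before each start site follow, 5′ to 3′ on the strand of the gene, from RefSeq on GRCm38.p6, with every CANNTG in capitals. They lie on the plus strand at chr5:75152001-75152250 for Pdgfra, chr7:129256844-129257093 for Plpp4 and chr10:73821617-73821866 for Pcdh15.
Pdgfra: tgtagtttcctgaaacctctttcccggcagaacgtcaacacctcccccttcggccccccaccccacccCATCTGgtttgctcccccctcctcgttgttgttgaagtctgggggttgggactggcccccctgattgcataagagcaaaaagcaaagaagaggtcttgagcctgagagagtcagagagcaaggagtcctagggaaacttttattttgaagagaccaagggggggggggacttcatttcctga
Plpp4: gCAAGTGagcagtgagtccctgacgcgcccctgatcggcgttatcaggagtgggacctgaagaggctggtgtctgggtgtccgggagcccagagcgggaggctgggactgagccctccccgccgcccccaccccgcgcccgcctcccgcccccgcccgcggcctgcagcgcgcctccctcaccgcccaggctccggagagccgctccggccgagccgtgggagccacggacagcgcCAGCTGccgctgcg
Pcdh15: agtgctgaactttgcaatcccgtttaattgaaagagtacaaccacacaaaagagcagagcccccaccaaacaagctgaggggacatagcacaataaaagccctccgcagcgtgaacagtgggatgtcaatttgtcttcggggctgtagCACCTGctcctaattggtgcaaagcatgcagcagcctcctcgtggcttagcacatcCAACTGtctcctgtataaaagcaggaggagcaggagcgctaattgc
The search used CANNTG on both strands, and its reverse complement is the same motif. Of the 20 genes most particular to OPCs, 12 had a promoter in the table, and 9 of these 12 held a CANNTG, against 66.0% of all 27025 promoters of that length. CAGCTG, 1 form of the E-box that also counts as a CANNTG, was in 1 of the 12, in the promoter of Plpp4, and in 12.8% of all promoters. The median GC content was 64.6% in the 12 and 52% in all promoters. A match is a description of these letters, not a bound site.

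OPCs made up 5.23% (exact 95% interval 4.73 to 5.76), 7.61% (6.71 to 8.59), 8.89% (7.89 to 9.96) and 5.56% (5.02 to 6.14) of all captured cells, a mean of 6.82% ± 1.73 (SD, n = 4). The Clopper-Pearson intervals cover counting error only. Mice 4 and 30 were above mice 3 and 34 by more than their intervals. Within the lineage of OPCs, COPs and oligodendrocytes the share was 17.1%, 18.6%, 29.6% and 17.9%, and mouse 30 stood alone above the others. For each COP there were 1.86, 1.23, 1.66 and 3.16 OPCs.

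Which genes set OPCs apart from the next stage of the lineage, from its mature end and from the other large glial type was asked in 3 comparisons of UMI sums from the same 4 mice. The 3 comparisons share the OPC sums and are not independent of one another. A gene was called in edgeR's quasi-likelihood test, with the mouse as a block, where its Benjamini-Hochberg adjusted p was under 0.05 and its level differed more than 2 times. The cell type labels were probably made from the same counts, so a call describes labelled groups and is no independent test. Against COPs, 1172 of 4879 genes tested were called (24.0%), 644 higher in OPCs (13.2%) and 528 lower (10.8%). Against oligodendrocytes 1817 of 6497 were called (28.0%), 973 higher (15.0%) and 844 lower (13.0%), and against astrocytes 1604 of 6902 (23.2%), 750 higher (10.9%) and 854 lower (12.4%). The 4 OPC values and the 4 values of the other type did not overlap for 37.7%, 48.7% and 43.0% of the genes tested, respectively. Log2 fold changes below are given with their SE, on the scale of TMM-normalised counts, and levels are in CPM. Against oligodendrocytes and astrocytes the ratio of plain CPM lies 0.38 and 0.29 higher on the log2 scale than these values, as a median over the genes tested.

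Of 2650 genes at 50 CPM or more in OPCs of every mouse, 674 were highest in OPCs, 125 of these by over 2 times and 48 by over 4 times the next of the 7 other types. Plpp4, a lipid phosphatase gene, led the ranking with 118, 77.9, 84.9 and 101 CPM, 68.8 times its mean in astrocytes, the next type. Sapcd2, a regulator of spindle orientation, was at 56.9, 69.7, 63.7 and 64.2 CPM, with 3 UMIs in all COPs, the next type. The cadherins Pcdh20 and Pcdh15 were also among the top 5, with Pcdh15 at 493, 517, 535 and 537 CPM, or 520.3 ± 20.6 CPM, 22.1 times its mean in oligodendrocytes. Further genes of the ranking had ratios down to 6.40 (C1ql1), among them Fam212b at 20.8, and included Vstm2a, Megf11, Emid1, Nxph1 and Epha5, which act at the cell surface or between cells. C1ql2, a secreted synaptic organiser, was at 78.8, 61.5, 80.7 and 68.8 CPM in OPCs and had 0 UMIs in all 681 COPs. With a floor of 3 counts over the COP sums, C1ql2 was at least 31.0-fold higher in OPCs.

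Growth factor receptors split by stage. Of the 20 receptors listed, 11 passed the expression filter against COPs, where 8 were higher in OPCs and 0 lower, with a median log2 fold change of 1.57 against 0.01 over all genes tested. Against oligodendrocytes 4 of 13 were higher and 2 lower, and against astrocytes 2 of 14 were higher and 6 lower. A gene passes the filter through the type in which it is high, so these counts describe the lists and do not test them.

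Pdgfra exceeded COPs by 6.55 ± 0.17 on the log2 scale, oligodendrocytes by 6.33 ± 0.13 and astrocytes by 6.84 ± 0.15, with no overlap between mice. Among the FGF receptors, which the injected ligand can bind, Fgfr1 stood at 81.0, 73.8, 89.2 and 64.2 CPM in OPCs, with a log2 fold change of 2.83 ± 0.35 against COPs and 1.53 ± 0.22 against oligodendrocytes. The 4 OPC values of Fgfr1 lay above the 4 of either type. In astrocytes Fgfr1 was at 109 ± 15.4 CPM, and the difference of -0.82 ± 0.16 was not called, but it was without clusters 38 and 45 (-1.02) and among cells of low doublet score (-1.25). Fgfr2 had 9 UMIs in all OPCs and 218 ± 20.2 CPM in oligodendrocytes, a log2 fold change of -5.45 ± 0.25, or -6.34 without mouse 3. Fgfr3 was at 107, 102, 136 and 112 CPM, well below its 875 ± 41.4 CPM in astrocytes (log2 fold change -3.24 ± 0.12). Without clusters 38 and 45 the mean of Fgfr3 in OPCs fell from 115 to 85.5 CPM and its difference from oligodendrocytes turned from 0.29 to -0.10 on the log2 scale, neither of them called. Fgfr1 stayed above COPs and oligodendrocytes without the small clusters, at 2.62 and 1.36 on the log2 scale.

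Ntrk3, the receptor of neurotrophin-3, was at 129, 148, 119 and 156 CPM and higher than in COPs by 3.23 ± 0.27 and than in oligodendrocytes by 2.97 ± 0.21, without overlap. Erbb3, a neuregulin receptor, was at 63.5, 69.7, 67.9 and 71.1 CPM and exceeded COPs by 1.92 ± 0.31. Ednrb, the endothelin B receptor, was at 247, 275, 331 and 252 CPM, above COPs by 2.35 ± 0.18 and below astrocytes, with a log2 fold change of -1.79 ± 0.10. Lpar1, a lysophosphatidic acid receptor of maturing oligodendrocytes, was the other receptor gene lower in OPCs than in oligodendrocytes, with a log2 fold change of -3.65 ± 0.16.

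Ligands were mostly sparse, and 4, 9 and 8 of the 20 listed passed the filter in the 3 comparisons, with 2, 5 and 4 higher in OPCs and 2, 2 and 2 lower. These counts depended on the cells used. Without mouse 30, 4 of 8 were higher than in COPs, and without mouse 3, 2 of 7 were higher than in astrocytes. Among cells of low doublet score 1 of 4 was higher and 2 lower than in oligodendrocytes, and 1 of 6 higher and 3 lower than in astrocytes. Ptn, the growth factor pleiotrophin, was at 3691, 2218, 2759.8 and 3129.6 CPM, higher than in COPs by 3.75 ± 0.08 and than in astrocytes by 1.08 ± 0.07. Mouse 4 was lowest for Ptn and still above every astrocyte and COP value. Ptprz1, a pleiotrophin receptor, was at 2284, 2349, 2288 and 2095 CPM in the same cells. Mdk, the pleiotrophin relative midkine, exceeded COPs by 2.60 ± 0.23. Pdgfa, the ligand of PDGFRα, was lower in OPCs (30.7, 8.20, 29.7 and 32.1 CPM) than in COPs (114 ± 12.7 CPM) and oligodendrocytes (97.5 ± 13.6 CPM), so within this lineage the receptor gene and its ligand gene were high in different stages. Fgf1, the gene of the native form of the injected protein, was at 35.0, 24.6, 42.5 and 41.3 CPM, with a log2 fold change of -2.03 ± 0.18 against oligodendrocytes and -1.42 ± 0.20 against astrocytes. Bmp7 was at 54.7, 111, 21.2 and 41.3 CPM, above oligodendrocytes by 4.06 ± 0.36 and above astrocytes by 1.29 ± 0.27. The latter was no longer called without mouse 4, at 0.80, or among cells of low doublet score, at 0.91.

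Targets and feedback inhibitors of ERK signalling were high in OPCs. Of the 14 genes listed, 11 passed the filter in each comparison. Against COPs 9 were higher and 1 lower, against oligodendrocytes 9 and 1, and against astrocytes 7 and 0. Their median log2 fold changes were 3.83, 2.95 and 1.83, where the medians of all genes tested were 0.01, -0.02 and 0.01. Counts were the same without clusters 38 and 45. Dusp4 had 0 UMIs in every cell used.

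Ccnd1, the ERK-driven cyclin D1 of the G1 phase, was at 440.1, 484, 395 and 459 CPM in OPCs and at 7.49 ± 8.26 CPM in COPs, a log2 fold change of 6.04 ± 0.26, or 6.75 without mouse 30. It exceeded oligodendrocytes by 4.36 ± 0.14 and astrocytes by 4.66 ± 0.15, and no value of these types reached the lowest OPC value. Etv5, an ETS factor induced by FGF signalling, was at 293, 201, 263 and 268 CPM, with 5.28 ± 0.28 against COPs, 3.75 ± 0.17 against oligodendrocytes and 1.83 ± 0.13 against astrocytes. The lowest OPC value of Etv5, in mouse 4, was above every value of these types. Its relative Etv4 was at 116, 119, 67.9 and 82.6 CPM and had 2 UMIs in all COPs.

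Sprouty genes encode feedback inhibitors of receptor tyrosine kinases. Spry4 was at 87.6, 69.7, 55.2 and 59.7 CPM in OPCs, with 1 UMI in all COPs, and exceeded astrocytes by 3.42 ± 0.30. Spry1 was at 109, 135, 80.7 and 128 CPM and exceeded astrocytes by 5.34 ± 0.30. Spry2 was the exception, at 236, 61.5, 132 and 225 CPM in OPCs against 147 ± 69.2 CPM in astrocytes, a difference of -0.15 ± 0.13 that was not called. Etv1 was lower in OPCs than in oligodendrocytes, with a log2 fold change of -2.14 ± 0.11, although higher than in COPs by 2.72 ± 0.23. Epha4, an ephrin receptor, was the 1 listed gene lower than in COPs, with a log2 fold change of -3.06 ± 0.26.

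**Figure D3:**
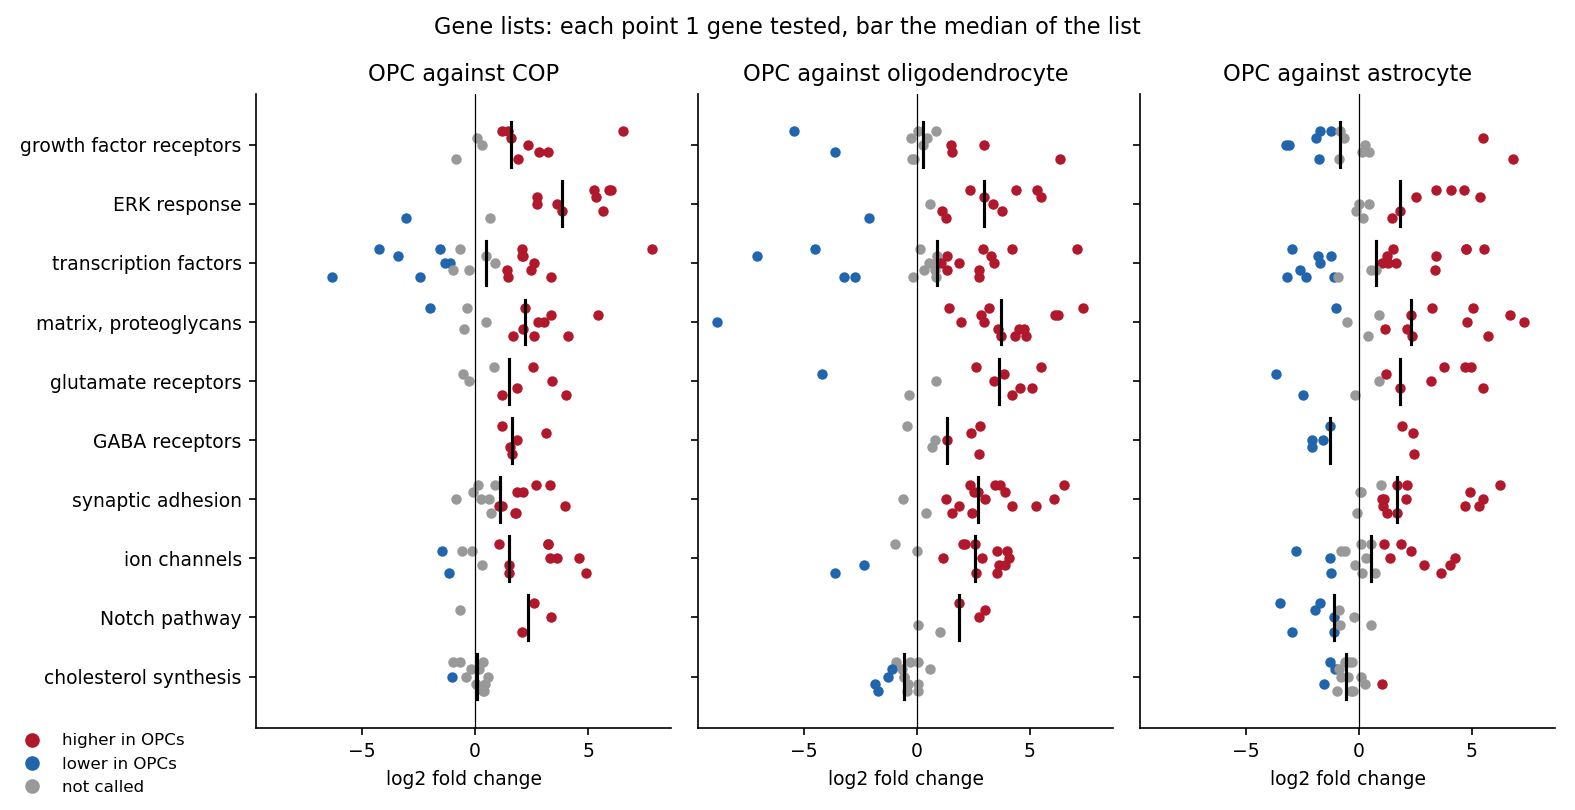
Log2 fold changes of OPCs against COPs, oligodendrocytes and astrocytes for the genes of 10 lists that passed the expression filter; red points are called higher in OPCs, blue points lower, grey points not called, and black bars are list medians. The ERK response list lies furthest to the right against COPs, with a median of 3.83, and cholesterol synthesis has medians of 0.10, -0.56 and -0.57 in the 3 comparisons.

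Of 24 transcription factors of the lineage listed, 9 of 21 were higher and 7 lower in OPCs than in COPs, 11 of 23 higher and 4 lower than in oligodendrocytes, and 10 of 21 higher and 8 lower than in astrocytes. Present across the lineage were Sox10, a regulator of myelin genes, at 346, 319.8, 331 and 438 CPM, and Olig2 at 392, 459, 412 and 441 CPM. Neither was called against COPs (log2 fold change -0.28 ± 0.11 and 0.49 ± 0.11), and both were above astrocytes, by 5.53 ± 0.18 and 3.35 ± 0.14.

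Listed factors higher in OPCs than in either later stage included Hes5, a Notch target that restrains differentiation, at 48.2, 45.1, 42.5 and 41.3 CPM and 3.38 ± 0.50 against COPs, and Sox11 at 201, 135, 115 and 220.3 CPM and 2.09 ± 0.20. Zeb1 was at 274, 271, 323 and 282 CPM, above COPs by 2.47 ± 0.18 and oligodendrocytes by 2.92 ± 0.14. Id2, an inhibitor of basic helix-loop-helix factors, was above COPs by 2.14 ± 0.16, but below astrocytes with -1.82 ± 0.10.

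Of the listed factors higher in COPs, Myrf, the activator of the myelin program, had 22 UMIs in all OPCs and stood at 305 CPM in COPs and 281 CPM in oligodendrocytes, log2 fold changes of -4.26 ± 0.22 and -4.52 ± 0.19. St18 had 1 UMI in OPCs and was at 84.2 CPM in COPs. Tcf7l2, a Wnt effector of the newly committed stage, was at 85.4, 65.6, 102 and 71.1 CPM in OPCs and 825 ± 142 CPM in COPs, and its difference from oligodendrocytes (49.6 CPM) was not called. Sox4 was at 182, 119, 166 and 227 CPM, below COPs with -2.46 ± 0.11 and above oligodendrocytes by 3.28 ± 0.18. Its values were therefore highest in COPs among the 3 stages in each mouse.

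**Figure D4:**
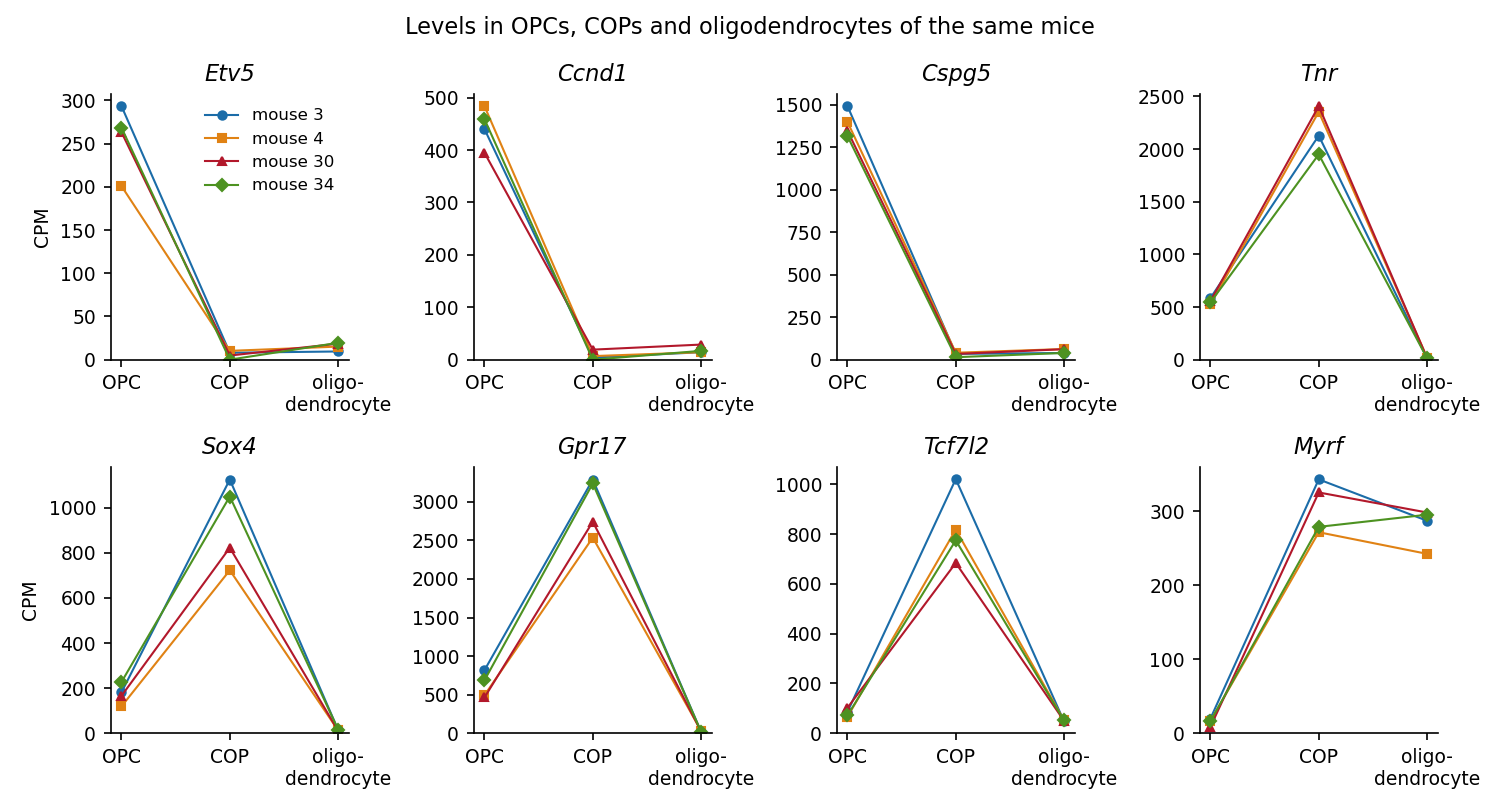
CPM of 8 genes in OPCs, COPs and oligodendrocytes, 1 line per mouse on linear axes that start at 0. Among the 3 stages Etv5, Ccnd1 and Cspg5 are highest in OPCs, Tnr, Sox4, Gpr17 and Tcf7l2 peak in COPs, and Myrf is low in OPCs and high in both later stages.

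Proteoglycans and other matrix genes, which give OPCs their chondroitin sulfate coat, were above oligodendrocytes in 14 of 15 tested, and 1 was lower. Against COPs 9 of 13 were higher and 1 lower, and against astrocytes 10 of 14 and 1, or 0 lower without mouse 34. Cspg5, neuroglycan C, was at 1491, 1398, 1346 and 1315 CPM, above COPs by 5.44 ± 0.14, oligodendrocytes by 4.50 ± 0.11 and astrocytes by 2.14 ± 0.09, and its values overlapped none of them. Sdc3, a heparan sulfate proteoglycan of the syndecan family, was at 464, 496, 433 and 473 CPM, above COPs by 3.34 ± 0.17. Chst11, a chondroitin sulfotransferase, was at 131, 176, 153 and 138 CPM, above COPs by 3.04 ± 0.26 (3.69 without mouse 3) and oligodendrocytes by 4.33 ± 0.24.

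Other members outlasted the OPC stage. Vcan, versican, was at 462, 381, 645 and 525 CPM in OPCs and 348 ± 15.1 CPM in COPs, a difference of 0.47 ± 0.11 that was not called, but at 8.10 CPM in oligodendrocytes. Tnr, tenascin-R, was at 585, 525, 556 and 544 CPM in OPCs, was called lower than in COPs (2209 ± 212 CPM), and was above oligodendrocytes by 4.84 ± 0.14. Bcan, brevican, was not called against COPs (-0.34 ± 0.08) or astrocytes (-0.55 ± 0.08). Acan, aggrecan, had 40 UMIs in OPCs and 0 in oligodendrocytes, at least 55.5-fold higher with the floor of 3 counts over the sums. Hapln2, a link protein of the node of Ranvier, had 0 UMIs in OPCs and 351 in oligodendrocytes, and was at least 28.1-fold lower.

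Neurotransmitter receptors were higher in OPCs than in the later stages for most members tested. Neuronal markers moved the same way: of the 9 listed, 2 of 3 tested were called higher against COPs (Snap25 and Snhg11), 2 of 5 against oligodendrocytes and 2 of 5 against astrocytes (Gad1 and Snhg11 in both), with 0 lower. Without mouse 4 the first count was 4 of 4, and the other two were 1 of 4 each without mouse 3 and also among cells of low doublet score. The part of neuronal RNA in the receptor and adhesion results was not tested. Of 24 glutamate receptor and auxiliary genes in the matrix, 8, 10 and 11 passed the filter, with 5 higher and 0 lower against COPs, 7 and 1 against oligodendrocytes and 7 and 2 against astrocytes. Gria3, an AMPA receptor subunit, was at 199, 172, 178 and 193 CPM, above COPs by 1.84 ± 0.19, oligodendrocytes by 5.10 ± 0.23 and astrocytes by 5.50 ± 0.24. Its OPC values lay within 172 to 199 CPM and overlapped none of these types. Gria2, the subunit that limits calcium entry, was at 895, 927, 858 and 984 CPM in OPCs and 1299.8 ± 206 CPM in COPs, and the difference of -0.54 ± 0.07 was not called. Cacng4, an AMPA receptor auxiliary subunit, was at 661, 631, 658 and 709 CPM, above COPs by 2.56 ± 0.13. Grm5, the group I metabotropic receptor mGluR5, was at 299.9, 287, 242 and 279.9 CPM, above COPs by 4.04 ± 0.23 and astrocytes by 3.77 ± 0.17. Grin3a, an NMDA receptor subunit, was at 173, 152, 144 and 163 CPM, above COPs by 3.38 ± 0.26 and oligodendrocytes by 4.20 ± 0.22. Gria1 went the other way against astrocytes, with -2.49 ± 0.14.

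GABA receptor genes showed a split between subunits. Against COPs 5 of 5 tested were higher (1 of 1 among cells of low doublet score), against oligodendrocytes 4 of 7 with 0 lower, and against astrocytes 3 of 7 were higher and 4 lower, of 13 listed. Gabra3, an α subunit of the GABA-A receptor, was above astrocytes by 2.39 ± 0.41. Lower than in astrocytes were Gabrb1 (-2.09 ± 0.16), Gabrg1 (-1.60 ± 0.15) and both subunits of the GABA-B receptor, Gabbr1 (-1.27 ± 0.11) and Gabbr2 (-2.07 ± 0.15).

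Synaptic adhesion genes were mostly higher in OPCs. Of 16 tested against COPs 9 were higher, of 17 against oligodendrocytes 15, and of 17 against astrocytes 13, with 0 lower in each, although against COPs 7 of 16 were higher without mouse 3 and 1 was lower without mouse 34. The neuronal marker sum was also higher in OPCs than in these 3 types, at 534 CPM against 181, 311 and 318 CPM. Nrxn3, a presynaptic neurexin, was at 169, 111, 242 and 167 CPM, above COPs by 3.96 ± 0.27 without overlap. Nxph1, a neurexin ligand, was at 184, 176, 234 and 223 CPM, above COPs by 3.30 ± 0.23 and astrocytes by 5.51 ± 0.23. C1ql1, a secreted synaptic organiser, was at 254, 328, 234 and 317 CPM, above oligodendrocytes by 6.48 ± 0.23. Dscam, an adhesion molecule of neurites, was at 162, 143, 132 and 190.4 CPM and above oligodendrocytes by 4.21 ± 0.22.

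Ion channel genes were higher against COPs in 9 of 14 tested and lower in 2, higher against oligodendrocytes in 12 of 16 and lower in 2, and higher against astrocytes in 8 of 19 and lower in 3. Among cells of low doublet score 4 of 7 were higher and 1 lower than in COPs, and without mouse 4, 1 of 16 was lower. Kcnip3, a calcium-binding subunit of A-type potassium channels, was at 366, 385, 284 and 312 CPM, above COPs by 4.90 ± 0.24. Scn3a, a sodium channel, was at 131, 123, 67.9 and 98.7 CPM, above astrocytes by 4.27 ± 0.26, and Scn1a was above COPs by 3.64 ± 0.43. Kcna1 and Kcna2, axonal-type potassium channels, were below COPs, with -1.15 ± 0.30 and -1.45 ± 0.17. Kcna1 was no longer called without mouse 4, at -0.92. Kcnj10, the inward rectifier Kir4.1, was below astrocytes, with -1.28 ± 0.10.

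Commitment genes were present in part of the OPCs. Of 8 COP markers, 7 were lower in OPCs than in COPs and 0 higher. Gpr17, a receptor of the committed stage, was at 817, 492, 463 and 686 CPM in OPCs and 2951 ± 371 CPM in COPs (-2.28 ± 0.07), yet far above its 22.0 CPM in oligodendrocytes (4.61 ± 0.14). Neu4, a sialidase, was at 372, 275, 437 and 395 CPM and the difference from COPs of -0.98 ± 0.10 fell short of the call, although it passed without mouse 30 or mouse 34, at -1.08 and -1.02. Bmp4 and Enpp6 had 2 and 3 UMIs in all OPCs, and 446 and 941 in COPs. Within the OPC label, Gpr17 was higher in cluster 13 than in cluster 8 in each mouse, as was Pdgfra. Gpr17 was at 1002, 615, 564 and 798 CPM in cluster 13 and 662, 421, 439 and 626 CPM in cluster 8.

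To compare cells at 1 depth, each cell was thinned to 800 UMIs, which left out 31, 126, 145 and 40 OPCs, 342 of 1261. A Gpr17 UMI was then found in 37.8% ± 7.69 of OPCs, in 82.9% of COPs and in 0.905% of astrocytes, a type that should lack it. Neu4 was found in 26.6% of OPCs and 42.6% of COPs. Enpp6 and Bmp4 were found in 2 OPCs each, 0.147% and 0.41%, in 0.0529% and 0.0177% of astrocytes, and in 43.4% and 24.2% of COPs. At least 1 of these 4 genes was found in 61.4%, 46.6%, 53.3% and 53.7% of the OPCs, a mean of 53.7% ± 6.07, against 95.8% of COPs and 1.44% of astrocytes. The unthinned OPC value was 58.8%. Thinned to 500 UMIs, the OPC shares were 35.4% for any of the 4 genes, 23.9% for Gpr17 and 16.4% for Neu4, and those of COPs 85.3%, 68.6% and 28.3%, so these shares depend on depth. Pdgfra was found in 61.5% ± 3.27 of OPCs and 0.683% of COPs, and Ccnd1 in 27.0% and 0.714%.

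**Figure D5:**
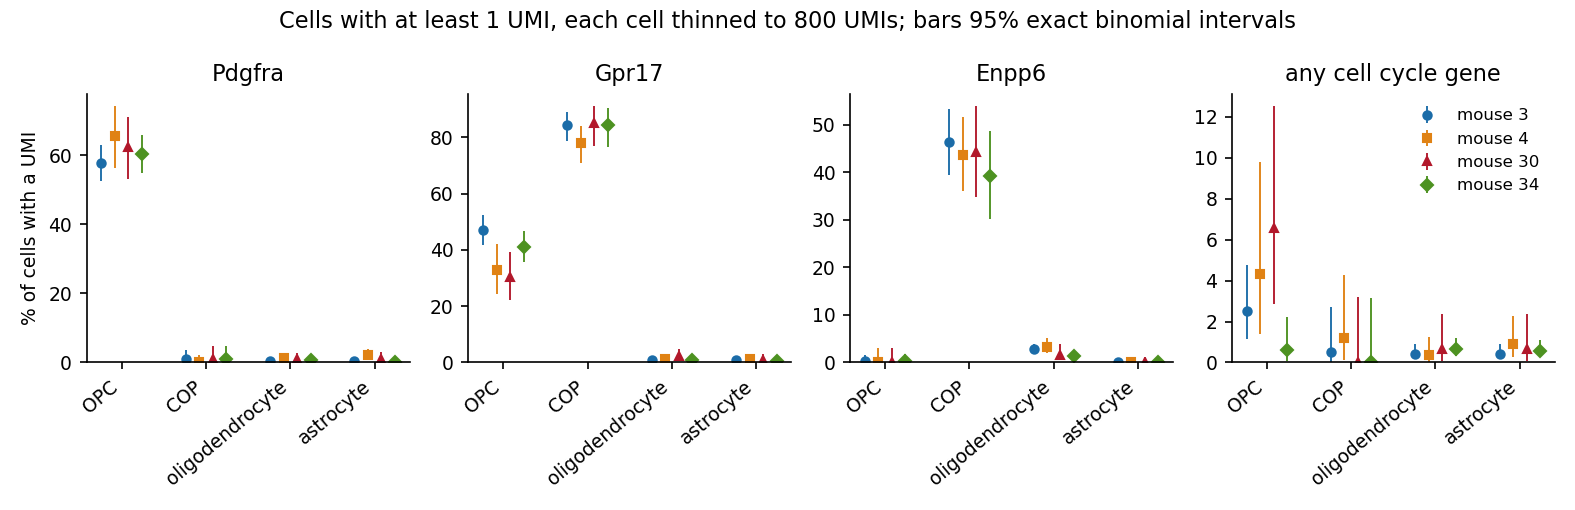
Share of cells with at least 1 UMI of Pdgfra, Gpr17, Enpp6 or any of 10 cell cycle genes after thinning each cell to 800 UMIs; points are mice and bars exact 95% binomial intervals. Gpr17 is found in 30.3% to 47.0% of OPCs, and Enpp6 in almost none of them.

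Genes of mitosis were found in few OPCs. A UMI of any of 10 cell cycle genes was found in 2.54%, 4.31%, 6.56% and 0.613% of thinned OPCs, 24 of 919 cells and a mean of 3.50% ± 2.53. COPs had 0.421%, oligodendrocytes 0.52% and astrocytes 0.639%, while ependymal cells, a type that should lack dividing cells, had 1.5%. The OPC value of mouse 34 lay below the ependymal mean and those of the 3 other mice above it. Single ependymal values ran from 0.621% to 2.78%, so the OPC value of mouse 3 lay within them. The unthinned mean was 4.74% in OPCs and 2.55% in ependymal cells. The cell with the most such UMIs had 16, 8, 10 and 3 of them. Cells with at least 2 such UMIs numbered 6, 7, 6 and 2. Cdk1 and Ccnb1, which belong to the 10 genes, were at 0 in every cell used. Top2a, a topoisomerase of dividing cells, had a UMI in 10 of 919 thinned OPCs and in 0 of 600 COPs. Pooled over mice, the latter allows up to 0.5% of COPs with a UMI at this depth, which is no limit on cells that express the gene.

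Of 20 listed proliferation genes, only 3, 5 and 5 passed the filter in the sums, and 0, 3 and 4 were higher in OPCs and none lower. With so few members the counts moved with the cells used. Against COPs 1 of 3 was lower without mouse 4, 30 or 34, 1 of 3 was higher without mouse 34, and 1 of 2 was lower among cells of low doublet score. Against oligodendrocytes 5 of 7 were higher without mouse 30 and 1 of 3 among cells of low doublet score, where 2 of 3 were higher than in astrocytes. Mcm2, a replication licensing helicase subunit, was at 30.7, 32.8, 38.2 and 25.2 CPM, above oligodendrocytes by 3.06 ± 0.41 and astrocytes by 3.94 ± 0.50. Hmgb2 was at 166, 159.9, 212 and 106 CPM, above oligodendrocytes by 2.31 ± 0.17.

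Oligodendrocyte markers were lower in OPCs than in oligodendrocytes for 12 of 12 and lower than in COPs for 7 of 8 tested. Mog was at 2.19, 4.10, 4.25 and 4.59 CPM in OPCs and 1015 ± 88.8 CPM in oligodendrocytes, Cldn11 at 25.1 and 3439 CPM. Mbp was found in 74.8% of thinned OPCs and 77.4% of astrocytes, so the Mbp share in OPCs was not above that of a type that should lack it.

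Astrocyte markers were lower in OPCs than in astrocytes for 9 of 9, and not called against oligodendrocytes for 9 of 9. Against COPs 5 of 8 tested were higher in OPCs, against 2 of 7 without clusters 38 and 45 and 3 of 9 without mouse 30. Gja1 in OPCs fell from 178 ± 12.3 CPM to 123 ± 20.2 CPM without these clusters.

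Among Notch pathway genes, 3 of 4 tested were above COPs, 3 of 5 above oligodendrocytes and 0 of 10 above astrocytes, with 6 lower. Without mouse 30, 6 of 9 were above oligodendrocytes, and without mouse 4 or 30, 1 of 11 was above astrocytes. Notch1 was at 112, 94.3, 161 and 115 CPM, above COPs by 2.08 ± 0.24 and oligodendrocytes by 3.01 ± 0.22. Notch2 and the fringe Lfng were below astrocytes, with -2.94 ± 0.22 and -3.51 ± 0.25.

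Immediate early genes were above COPs in 6 of 8 tested and above oligodendrocytes in 5 of 10, while against astrocytes 2 of 11 were higher and 1 lower, or 2 lower without mouse 30. Among cells of low doublet score 3 of 5 were above COPs. Fos was at 659, 443, 543 and 888 CPM, above COPs by 2.81 ± 0.14, and Fosb was above COPs by 4.12 ± 0.32 and astrocytes by 1.12 ± 0.16. Egr1 varied widely between mice, at 366, 111, 204 and 259 CPM, and its difference from oligodendrocytes (1.40 ± 0.14) was no longer called without mouse 3, at 0.89.

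Of the glucocorticoid-induced genes, Sgk1, a kinase induced by corticosteroids, was below COPs with -2.85 ± 0.14 and oligodendrocytes with -2.87 ± 0.14, but above astrocytes by 2.33 ± 0.23. Tsc22d3 was below astrocytes with -2.59 ± 0.13. Tsc22d3 was also called higher than in COPs, but not without clusters 38 and 45 (0.89), without mouse 3 (0.88), without the filter (0.97) or among cells of low doublet score (0.94). In all, 3 of 5 tested were higher and 1 lower than in COPs, or 2 of 5 and 1 without clusters 38 and 45 and 1 of 4 higher without mouse 3, 0 of 9 and 4 than in oligodendrocytes, and 1 of 8 and 4 than in astrocytes, or 2 of 9 higher without clusters 38 and 45, mouse 4 or mouse 30.

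Cholesterol synthesis genes were mostly not called. Against COPs 0 of 12 were higher and 1 lower, against oligodendrocytes 0 of 15 and 4, and against astrocytes 1 of 16 and 3, or 0 of 16 and 4 without clusters 38 and 45. None was higher than in astrocytes without mouse 4 or 30, 5 were lower without mouse 3 or 30, and against COPs 0 were lower without mouse 3 and 2 without the replicate block. Hmgcs1, an early enzyme of the pathway, was below oligodendrocytes with -1.28 ± 0.12, and Sc5d, a late one, with -1.71 ± 0.21. Of interferon and antigen presentation genes, 3 of 5 were above COPs, 2 of 7 above oligodendrocytes and 0 of 9 above astrocytes, with 4 lower than in astrocytes. Without mouse 3, 2 of 8 were lower than in astrocytes, 1 of 5 was lower than in COPs and 1 of 7 lower than in oligodendrocytes (also 1 of 7 without clusters 38 and 45), and among cells of low doublet score 1 of 2 was above COPs. H2-D1, a class I heavy chain gene whose reads may be shared with its near-identical relatives, was at 74.4, 98.4, 72.2 and 52.8 CPM, above COPs by 2.07 ± 0.32 and oligodendrocytes by 1.44 ± 0.23.

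Genes with the largest differences outside the lists included Cdo1, a cysteine dioxygenase, at 223, 205, 251 and 186 CPM in OPCs with 1 UMI in all COPs. Myt1, a zinc finger factor of the early lineage, was at 108 CPM on average and exceeded astrocytes by 6.48 ± 0.35. Calcrl, a receptor of the calcitonin family, exceeded oligodendrocytes by 6.33 ± 0.32 and astrocytes by 6.05 ± 0.29. Furthest below COPs was Chn2, a Rac regulator (-6.05 ± 0.16), and furthest below astrocytes was Phkg1, a phosphorylase kinase subunit (-4.65 ± 0.24, or -5.43 without clusters 38 and 45), among genes at 100 CPM or more in the higher type with more than 3 UMIs in both types. Tmem125 had 0 UMIs in OPCs and 654 in oligodendrocytes, at least 52.4-fold lower.

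The spread between the 4 mice was similar in OPCs and the types beside them. Over each type's own genes at 100 CPM or more, the biological coefficient of variation was 0.128 in OPCs (1582 genes), 0.133 in COPs (1662), 0.133 in oligodendrocytes (1405) and 0.144 in astrocytes (1323). Ptgds, prostaglandin D synthase, varied most, at 127, 353, 1473 and 303 CPM in OPCs. Astrocytes of mouse 30 were also highest, at 1623 CPM, and oligodendrocytes held 10427 to 17270 CPM in every mouse. Hbb-bs, a haemoglobin gene, was at 54.7, 57.4, 365 and 73.4 CPM and was highest in mouse 30 in oligodendrocytes and astrocytes as well, but in COPs in mouse 3, at 271 CPM against 206 CPM in mouse 30. Vps8, a vacuolar sorting gene, was at 243, 959, 752 and 330.4 CPM, and Cnot3, a deadenylase subunit, at 85.4, 217, 234 and 96.4 CPM. For both, mice 4 and 30 were above mice 3 and 34 in OPCs, COPs, oligodendrocytes and astrocytes alike, and these 2 mice also had the lower median UMIs per OPC. Spry2 went the other way, with mice 3 and 34 higher in all 4 types. Median UMIs per astrocyte were 829.5, 888, 857 and 866, which did not set mice 4 and 30 apart from mice 3 and 34. The part of depth in these differences was not tested.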

How the data were processed

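Each sample was the dissociated hypothalamus of 1 mouse, sequenced as a 10x 3′ single-cell library. The authors deposited a matrix of raw UMI counts (16411 genes) and a cell annotation with cell type labels, clusters and doublet scores. Per the submitters' processing notes, Cell Ranger 1.2 and Seurat were used. How labels, clusters, scores and cell filters were made is not given in the sources used here. The authors deposited the doublet score of a cell as a fraction, the mitochondrial and ribosomal protein UMIs as a percentage of the cell's UMIs, and a silhouette score, all taken as they stand, and the doublet call was 0 for every cell.

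Cells were taken by the OPC label and the mouse in the annotation, and 50172 cells of 12 other libraries were not used. The members and gene lists were chosen with earlier results of these data known. For each type in each mouse the UMI counts were added up and, for levels, scaled to a total of 1000000 (CPM). Types were compared with edgeR 4.0.16 in R 4.3.3 (TMM, filterByExpr, quasi-likelihood F test, mouse as a block since both sums come from 1 animal, Benjamini-Hochberg over all genes tested). Alternatives were DESeq2 1.42.0, RLE factors, no filter, no block, thinned sums, cells of low doublet score, no mitochondrial or ribosomal protein genes, each mouse left out and, chosen after seeing the data, no cells of clusters 38 and 45. Shares of cells used Python 3.11.15. Genes were named as list members called with the largest differences or on the path from ligand to target, as the 8 furthest in each direction per comparison, as the 20 most particular to OPCs, and as the 12 most variable between mice. Further list members named as contrasts were chosen after their values were seen. The tests were checked on simulated counts.

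The mouse block comes from the design, as the 2 sums of a pair hold cells of the same animal. UMI counts from 3′ ends are not scaled by gene length, so levels are compared between types and mice, not between genes. Of 25 glutamate receptor genes and 25 ion channel genes listed, 1 each, Grin2d and Scn2a, was not in the matrix. A few genes of the lists enter the counts but are not reported here by name.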

Additional observations from a re-analysis of the deposited data

Results flagged for a closer look

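Of 194 OPC values screened over the 4 mice, 12 had 1 mouse further from the 3 others than Dixon's 95% critical value for 4 samples allows. Only genes with at least 20 UMIs in OPCs were screened. Chance flags about 1 group in 20, and 6.19% of the values were flagged here. Ptgds, Hbb-bs, Gm10076 and Rpl13 were among the 12 genes named for their large spread between these mice, so that rate does not hold for them. Hbb-bs is also part of the erythrocyte marker sum. No cause was tested for any of these values.

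Mouse 30 held 6 of them. Ptgds reached 1473 CPM, where the other mice had 127 to 353 CPM, Hbb-bs 365 CPM, where they had 54.7 to 73.4, and the summed erythrocyte markers 675 CPM, against 94.1 to 135. Nfkbia, an inhibitor of NF-κB, was at 127 CPM against 35.0 to 49.2, and its call against COPs was lost without mouse 30, at a log2 fold change of 0.87. Kcnj10 was low, at 220.8 CPM against 280.2 to 289. OPCs formed 29.6% of the oligodendrocyte lineage in mouse 30 and 17.1% to 18.6% in the others.

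Mouse 4 held 5. Rpl13 was at 2468 CPM against 915 to 1097 and Gm10076 at 569.9 CPM against 98.5 to 145, and mouse 4 was highest for both in COPs, oligodendrocytes and astrocytes too. Tgfb2 was at 49.2 CPM against 24.1 to 25.5. Pdgfa was low, at 8.20 CPM against 29.7 to 32.1, on 37 UMIs in all OPCs, and Snx22 was low, at 115 CPM against 138 to 140.1. In mouse 34, Kcna2 was at 82.6 CPM against 65.6 to 67.9.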

How the results depend on the processing

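Of 388 gene values followed through the alternatives, 361 kept their direction and their side of the threshold under each alternative run, and of 4588 alternative values 47 lost the call, 6 gained it (Neu4 and Olig1 in 4 and Fgfr1 against astrocytes in 2) and 1 changed sign. That 1 was Fgfr3 against oligodendrocytes, at -0.10 without clusters 38 and 45 (not called either way), and the cause was not tested. The values followed belong to genes named here, many of them for large differences, and do not stand for all calls. Among cells of low doublet score 3341 genes were tested against COPs, and 809 of the 1172 main calls were called there too. Without the filter on low counts more genes were tested and 2301, 3054 and 2725 were called against COPs, oligodendrocytes and astrocytes. With each mouse left out the counts were 1136 to 1510, 1799 to 2318 and 1617 to 1947, and without clusters 38 and 45 they were 1172, 1803 and 1636. Without the replicate block the counts were 1175, 1829 and 1588 and 1 followed gene changed its call, Nkx2-2 against astrocytes, at 0.98. The share of OPCs among cells was 20.8% of the lineage alone and 9.19% without astrocytes, by construction of smaller denominators. With 1 mouse left out it was 6.13% to 7.35%. The share of OPCs with a UMI of a COP marker was 35.4% after thinning to 500 UMIs, and 51.2% to 56.1% with a mouse left out. The cell cycle share was 2.49% to 4.47%, lowest without mouse 30. The biological coefficient of variation was 0.113 to 0.147.

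The values rest on 4 mice of 1 group and on captured, not resident, cells, and how the cell type labels were made is not given in the sources used here. Intervals cover counting error only. Genes under about 20 UMIs in OPCs were too shallow for a spread between mice.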
